A study of Mus musculus with 114 samples.

Results

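The genes described here are 9 protein-coding genes of the mouse mitochondrial DNA: mt-Nd1, mt-Nd2, mt-Nd4, mt-Nd5, mt-Cytb, mt-Co1, mt-Co2, mt-Co3 and mt-Atp6. They were chosen by name from the 13101 genes of a count table, and all 9 were present. The table comes from mouse prefrontal cortex, in which ribosomes carrying a haemagglutinin (HA) tag were pulled down with an antibody and their RNA was sequenced. Libraries were made from female and male mice, labelled Ribo-tag mice, at ZT2, ZT6, ZT10, ZT14, ZT18 or ZT22, where zeitgeber time (ZT) counts the hours since the lights came on. Titles begin with PV or C, and the cell type entries name parvalbumin interneurons and pyramidal cells, but prefix and entry name opposite cell types in every library. Libraries are therefore called PV-titled and C-titled after the title alone. The sources used here do not give the driver that switches on the tag, the age of the mice or whether each library is a separate animal, so p-values measure the spread between libraries, which may in part be technical.

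Of 114 libraries in the labels 113 were analysed, 55 PV-titled (28 female, 27 male) and 58 C-titled (29 female, 29 male). Counts on genes ranged from 19098081 to 39463892 in the PV-titled libraries and from 24559670 to 44077429 in those titled C. The library numbers in the titles fall into a lower range (26 PV-titled and 29 C-titled libraries) and a higher range (29 and 29), taken here as batches. In 15 libraries (9 PV-titled, 6 C-titled) the median r with all other libraries of the same prefix lay more than 5 median absolute deviations below the typical value, at 0.8191 to 0.9097 against 0.9241 to 0.9553 in the other PV-titled libraries and at 0.8846 to 0.9606 against 0.9642 to 0.9832 in the other C-titled ones. These are called the libraries that stand apart. Of the 6 C-titled ones 5 are at ZT2 or ZT6, and of the 9 PV-titled ones 8 are in the lower range. Between prefixes 44.3% of all genes were called higher and 43.2% lower with the PV title (edgeR, adjusted p under 0.05). All 8 GABAergic markers were higher with the PV title (Gad1 at 416.4 ± 113.3 against 26.41 ± 14.52 CPM, counts scaled to library size, mean ± SD), as were 10 of 11 PV interneuron markers. Of 12 pyramidal markers 10 were lower and 1 higher, but they were not absent, with a summed level of 1564 to 3829 CPM against 3899 to 7840 CPM in C-titled libraries.

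Mitochondria keep a small circular genome of their own, which is transcribed and translated inside the organelle by its own ribosomes. The proteins it encodes are core subunits of the respiratory chain: the mt-Nd genes belong to complex I, which takes electrons from NADH, mt-Cytb to complex III, the mt-Co genes to complex IV, which passes electrons to oxygen, and mt-Atp6 to ATP synthase. Subunits that the mitochondrial genome does not encode are encoded in the nucleus and made on cytosolic ribosomes. The HA tag of RiboTag mice sits on a protein of the cytosolic ribosome, so mitochondrial mRNAs are not the usual cargo of the tagged ribosomes.

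Part of the mitochondrial genome has a nearly perfect copy in the nuclear genome, and a read from a shared stretch cannot be placed by its sequence. In the GENCODE vM21 annotation of build GRCm38, 7 annotated copies lie next to each other on the minus strand of chromosome 1. The copy Gm28661 (chr1:24614885-24615565) matched 681 of the 684 bases of mt-Co2 (chrM:7013-7696) with 0 mismatches. Gm10925 (chr1:24613974-24614651) matched 678 of the 681 bases of mt-Atp6 (chrM:7927-8607), and Gm28437 (chr1:24613189-24613971) matched 783 of the 784 bases of mt-Co3 (chrM:8607-9390), each with 0 mismatches. Gm28439 (chr1:24611535-24612410) matched 63.57% of mt-Nd4 (chrM:10167-11544), also with 0 mismatches. Gm29216 (chr1:24615706-24616197) matched 492 bases of mt-Co1 (chrM:5328-6872) with 6 mismatches, 98.78% identity. The first 60 bases of the copies and the matching stretch of each mitochondrial gene are shown because the results below divide along them. Capitals mark mismatches between mt-Co1 and its copy, and all 6 of them lie in the stretch shown. For the other genes the mitochondrial and the nuclear stretch are the same.
mt-Co2: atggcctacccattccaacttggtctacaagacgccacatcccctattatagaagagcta
Gm28661: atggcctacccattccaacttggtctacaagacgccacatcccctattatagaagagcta
mt-Atp6 and Gm10925: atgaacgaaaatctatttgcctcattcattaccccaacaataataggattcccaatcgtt
mt-Co3 and Gm28437: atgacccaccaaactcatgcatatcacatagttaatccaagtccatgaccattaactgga
mt-Co1: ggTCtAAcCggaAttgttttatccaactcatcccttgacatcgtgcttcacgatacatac
Gm29216: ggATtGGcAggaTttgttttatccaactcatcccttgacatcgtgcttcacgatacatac

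The 9 genes thus fall into groups by how much of their sequence is also nuclear. Of all stretches of 50 bases in mt-Co2, mt-Co3 and mt-Atp6, 100%, 99.86% and 99.53% also occur in a nuclear transcript of the annotation. The share was 62.23% for mt-Nd4 and 51.14% for mt-Co1, 8.19% for mt-Nd2 and 7.606% for mt-Nd5, and 0% for mt-Nd1 (chrM:2751-3707) and mt-Cytb (chrM:14145-15288). The positions of mt-Nd2 and mt-Nd5 are chrM:3914-4951 and chrM:11742-13565. mt-Co2, mt-Co3 and mt-Atp6 are called the 3 wholly covered genes from here on, and the remainder the other 6. The sources used here do not give how the authors placed reads that match more than 1 place.

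Levels per length followed this division. In PV-titled libraries the mean level was 1591 ± 637.5 CPM per kb for mt-Nd1, 974.1 ± 384.0 for mt-Cytb, 648.8 ± 241.5 for mt-Nd2, 400.1 ± 139.8 for mt-Nd4, 382.6 ± 98.79 for mt-Co1 and 364.3 ± 143.4 for mt-Nd5 (SD, n = 55). Neighbours in this order overlap within their spread. This order depends on the length used. When the same counts were divided only by the bases outside stretches shared with nuclear transcripts, mt-Co1 stood at 1523 ± 393.4 CPM per kb and mt-Nd4 at 1098 ± 383.7, next to mt-Nd1 and mt-Cytb, whose values did not change, followed by mt-Nd2 at 784.0 ± 291.9 and mt-Nd5 at 481.2 ± 189.4. In C-titled libraries mt-Co1 moved from the lowest of the 6 at 62.48 ± 19.28 to 248.8 ± 76.76, mt-Nd4 to 233.8 ± 85.83, mt-Nd2 to 156.9 ± 56.14 and mt-Nd5 to 93.14 ± 35.46 CPM per kb. The 3 wholly covered genes have no such value. By whole length these 3 genes stood far below, at 2.879 ± 1.395 CPM per kb for mt-Atp6, 2.527 ± 1.156 for mt-Co3 and 1.854 ± 0.8278 for mt-Co2. The order in C-titled libraries began with mt-Nd1 at 259.1 ± 96.35, mt-Cytb at 164.3 ± 63.96 and mt-Nd2 at 129.9 ± 46.46 CPM per kb, and ended with mt-Atp6 at 0.4433 ± 0.2647 and mt-Co2 at 0.3002 ± 0.2243 (n = 58). In each single library the least abundant of the other 6 exceeded the most abundant of the 3 wholly covered genes in CPM, by 105.7-fold to 989.9-fold in PV-titled and by 56.8-fold to 621.2-fold in C-titled libraries. Their counts were correspondingly small, with medians of 36 counts for mt-Co2, 58 for mt-Co3 and 52 for mt-Atp6 in PV-titled libraries and of 6, 12 and 9 in C-titled ones. mt-Co2 had no count in 5 of 58 C-titled libraries, which allows up to 0.1113 CPM there (3 counts, counting error only).

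**Figure D1:**
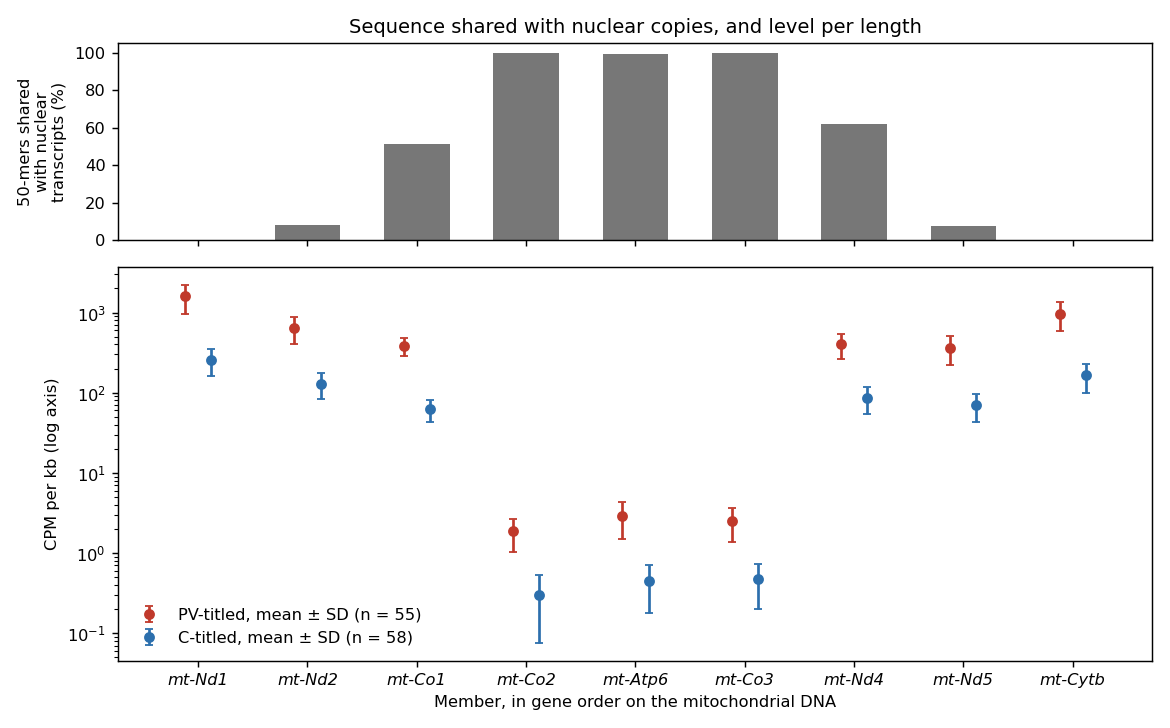
Upper panel, share of 50-base stretches of each gene that also occur in a nuclear transcript, in percent. Lower panel, level in CPM per kb on a log axis, mean ± SD over 55 PV-titled (red) and 58 C-titled (blue) libraries. The 3 genes with shares of 99.53% to 100% have levels of 0.3002 to 2.879 CPM per kb, and the other 6 have levels of at least 62.48.

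For mt-Co2, mt-Atp6 and mt-Co3 more counts were assigned to the nuclear copy than to the mitochondrial gene. Gm28661 had 8.864 ± 5.621 CPM where mt-Co2 had 1.268 ± 0.5662 in PV-titled libraries, and the copy was above the gene in 55 of 55 PV-titled and 58 of 58 C-titled libraries. Gm10925 was above mt-Atp6 in 51 of 55 and 49 of 58 libraries, and Gm28437 was above mt-Co3 in 53 of 55 and 38 of 58. The reverse held for genes covered in part: Gm29216 was below mt-Co1 and Gm28439 below mt-Nd4 in all libraries of both prefixes. The 5 copies in the table together had 4.304 to 124.1 CPM (median 38.46) in PV-titled and 0.869 to 23.19 CPM (median 3.048) in C-titled libraries.

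The 9 genes together made up 0.5542% ± 0.1974 of the counts on genes in PV-titled libraries (0.1014% to 1.117%, n = 55) and 0.08586% ± 0.03082 in C-titled libraries (0.03474% to 0.1742%, n = 58). All but 1 of the PV-titled libraries lay above the highest C-titled library in the ratio of this sum to the summed nuclear subunits of complexes I, III, IV and ATP synthase: the ratio was 0.07268 to 0.9651 (median 0.5013) in PV-titled and 0.02282 to 0.1069 (median 0.05095) in C-titled libraries.

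Among the complex I genes, mt-Nd1 ranged from 229.5 through a median of 1555 to 3299 CPM in PV-titled libraries and from 70.81 through 250.4 to 490.8 CPM in C-titled libraries. Only 2 of 55 PV-titled libraries fell within the C-titled range, since 53 of 55 were above it. The share of all genes that separate the prefixes this far was not counted, here or for the genes below. The range of mt-Nd2 was 121.7 to 1334 CPM (median 642.2) in PV-titled and 55.43 to 275.2 CPM (median 130.8) in C-titled libraries, again with 53 of 55 above. For mt-Nd4 the values were 114.9 to 1078 CPM (median 526.7) against 48.72 to 248.3 CPM (median 111.4), with 53 of 55 above. The lowest and highest levels of mt-Nd5 were 95.29 and 1358 CPM (median 686.4) against 41.29 and 247.2 CPM (median 122.5), with 52 of 55 above. These genes encode membrane subunits of complex I, and all 4 showed the same picture of a few PV-titled libraries reaching down into the C-titled range.

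mt-Cytb, which encodes the cytochrome b subunit of complex III, ranged from 176.4 to 2645 CPM (median 1121) in PV-titled and from 83.21 to 418.9 CPM (median 174.4) in C-titled libraries, with 53 of 55 PV-titled libraries above the C-titled range. mt-Co1, the catalytic subunit of complex IV, ranged from 219.1 to 1025 CPM (median 581.1) against 54.3 to 201.8 CPM (median 87.31), and was the only member with no overlap, at 55 of 55. The share of all genes without overlap was not counted, and 87.5% of all genes were called between the prefixes. mt-Co1 also varied least between libraries, with a coefficient of variation of 25.82% in PV-titled libraries and 30.86% in C-titled ones, against 34.93% to 48.46% and 35.77% to 74.73% for the other 8.

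The wholly covered genes gave the same direction at far lower counts. mt-Co2, the complex IV subunit that takes electrons from cytochrome c, ranged from 0.2286 to 2.841 CPM (median 1.25) in PV-titled and from 0 to 0.6463 CPM (median 0.1652) in C-titled libraries, with 46 of 55 above the C-titled range. The core subunit gene mt-Co3 ranged from 0.3714 to 5.79 CPM (median 1.882) against 0 to 1.163 CPM (median 0.3382), with 46 of 55 above. For mt-Atp6, part of the proton channel of ATP synthase, the values were 0.2571 to 4.254 CPM (median 1.775) against 0 to 0.8805 CPM (median 0.2481), with 49 of 55 above. When the libraries that stand apart were left out, all 46 remaining PV-titled libraries were above the 52 C-titled ones for each of the other 6 genes, and 43 to 44 of 46 for the 3 wholly covered genes. mt-Nd6 and mt-Rnr1 also had 46 of 46 above, and the share of all genes was again not counted.

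**Figure D2:**
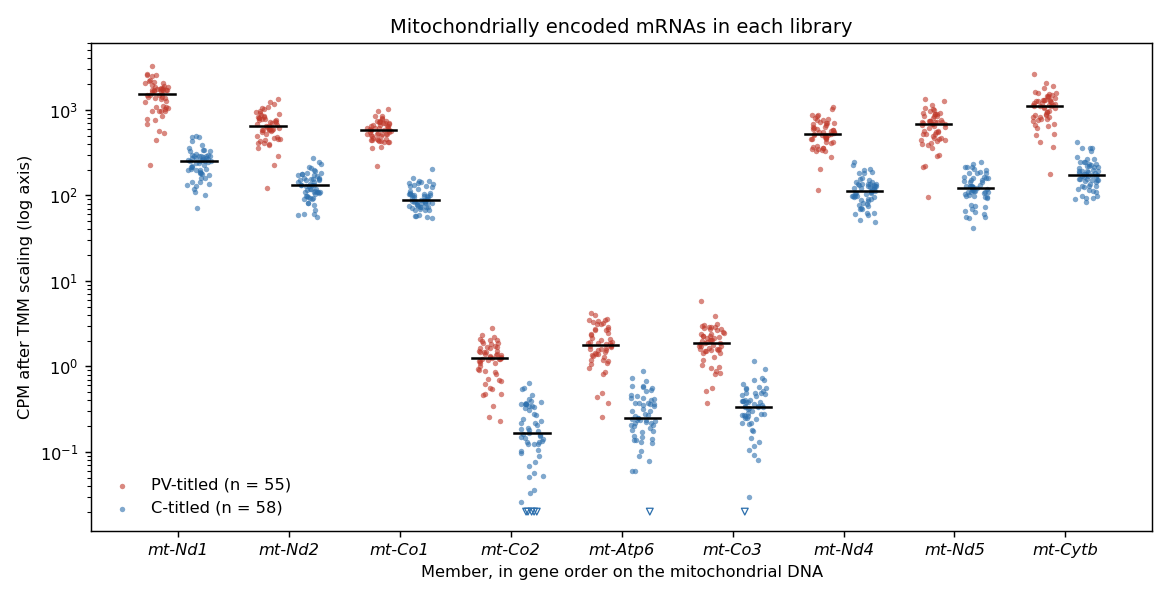
Level of each gene in every library, in CPM on a log axis, with PV-titled libraries in red (n = 55), C-titled in blue (n = 58) and the median as a black line. Open triangles at the bottom are libraries with a count of 0. PV-titled medians are above C-titled medians for all 9 genes, and of these only mt-Co1 shows no overlap between prefixes. The share of all genes without overlap was not counted.

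All 9 genes were called higher in PV-titled libraries by edgeR's quasi-likelihood test with time, sex and library range as further terms and Benjamini-Hochberg adjustment over all genes. A call is common in this comparison: 87.5% of all genes were called and 44.3% were called higher in PV-titled libraries. The median log2 difference was 2.57 over the 9 genes and 0.01 over all genes tested. The differences (log2, SE) were 2.62 (0.11) for mt-Nd1, 2.31 (0.11) for mt-Nd2, 2.22 (0.10) for mt-Nd4, 2.37 (0.12) for mt-Nd5 and 2.57 (0.11) for mt-Cytb. They were 2.62 (0.08) for mt-Co1, 2.58 (0.17) for mt-Co2, 2.41 (0.14) for mt-Co3 and 2.65 (0.15) for mt-Atp6. In linear terms this is 4.67-fold for mt-Nd4 to 6.287-fold for mt-Atp6, and the adjusted p (edgeR) ran from 8.471e-58 for mt-Co1 to 3.274e-28 for mt-Co2. Within the lower range of library numbers the differences were 2.13 to 2.65 and within the higher range 2.28 to 2.81, and without the libraries that stand apart they were 2.15 to 2.70. With scaling by library totals alone the median over all genes was 0.21 instead of 0.01, and the 9 genes lay between 2.42 and 2.85.

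The other genes of the mitochondrial DNA in the table differed by similar amounts. The ribosomal RNAs mt-Rnr1 and mt-Rnr2 were higher in PV-titled libraries by log2 2.35 (SE 0.11) and 2.43 (SE 0.11), at 118.7 ± 34.99 against 23.63 ± 13.04 CPM and 443.3 ± 151.7 against 84.02 ± 56.27 CPM. mt-Nd6 lies on the strand opposite to the 9 genes, and its end overlaps that of mt-Nd5 (chrM:13552-14070 and chrM:11742-13565). Its difference was log2 2.27 (SE 0.12), at 388.2 ± 158.7 against 79.65 ± 30.84 CPM. The sources used here do not give whether counting used the strand, so reads of mt-Nd6 and reads from the opposite strand there cannot be told apart. mt-Nd3, of which 97.99% of 50-base stretches are also nuclear, had 0.5739 ± 0.3145 against 0.1731 ± 0.1313 CPM (log2 1.70, SE 0.18). Of the 6 other mitochondrial genes listed 4 were found in the table by symbol, and mt-Nd4l and mt-Atp8 were not.

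The chromosome 1 copies were higher in PV-titled libraries too, 5 of 5 in the table, where 44.3% of all genes were called higher. Gm28661 differed by log2 2.52 (SE 0.14) and Gm28439 by 2.51 (SE 0.20), close to the mitochondrial genes they match. The differences were larger for Gm29216 (3.56, SE 0.31), Gm10925 (3.87, SE 0.25) and Gm28437 (3.99, SE 0.31), whose level varied widely between libraries: Gm28437 ranged from 0.2807 through a median of 8.897 to 57.53 CPM in PV-titled and from 0.06229 through 0.5147 to 17.18 CPM in C-titled libraries.

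Nuclear genes for the same complexes differed in the opposite direction. Of 36 nuclear complex I genes 35 were called lower and 0 higher in PV-titled libraries, where 43.2% of all genes were called lower (median log2 -0.74). Ndufa9 fell from 208.2 ± 27.17 CPM in C-titled to 115.6 ± 20.73 CPM in PV-titled libraries, Ndufa10 from 241.3 ± 19.72 to 150.2 ± 23.76 and Ndufv1, which holds the NADH site, from 390.4 ± 39.13 to 248.2 ± 36.7 CPM. All 9 nuclear complex III genes (Uqcrc2 at 138 ± 25.03 against 238.1 ± 22.05 CPM), all 17 of ATP synthase (Atp5a1, its catalytic head's alpha subunit, at 583.9 ± 81.69 against 1133 ± 75.85 CPM) and all 4 of complex II, which has no mitochondrially encoded subunit (Sdha at 374.4 ± 59.74 against 637.1 ± 67.81 CPM), were lower. In complex IV 12 of 13 were lower, Cox4i1 at 378.7 ± 73.4 against 729.3 ± 235.8 CPM. The exception was Cox6a2, a subunit form also used as a PV interneuron marker, at 20.05 ± 8.697 against 0.3858 ± 0.3152 CPM (log2 5.70, SE 0.17). These counts were 35, 9, 17, 4 and 12 as well without the libraries that stand apart, and with scaling by library totals alone they were 34, 7, 15, 4 and 10, with 1 complex I gene then called higher.

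Genes that maintain and express the mitochondrial genome moved in both directions, as did all genes, of which 44.3% were called higher and 43.2% lower in PV-titled libraries. The shares called were 80% for transcription and replication, 83.3% for mRNA processing and 84.6% for translation factors. These are near the 87.5% of all genes, so the counts for those lists are no result about them. Of 15 genes for its transcription and replication 7 were higher and 5 lower in PV-titled libraries, among them the single-stranded DNA-binding protein Ssbp1 (126.1 ± 39.53 against 38.23 ± 11.65 CPM), the DNA polymerase Polg (138.5 ± 27.94 against 71.73 ± 11.51 CPM) and the termination factor family member Mterf1a (10.11 ± 4.215 against 3.56 ± 1.18 CPM). With scaling by library totals alone 10 were higher and 1 lower. Of 18 genes for processing and stability of mitochondrial mRNA 7 were higher and 8 lower (10 and 6 with library totals alone). Pnpt1, an RNA-degrading exonuclease, was at 46.28 ± 10.07 against 16.72 ± 3.926 CPM, and Hsd17b10, a subunit of the mitochondrial RNase P, at 21.56 ± 5.502 against 41.07 ± 8.619 CPM. Translation factors split into 5 higher and 6 lower of 13 (7 and 5 with library totals alone), with the ribosome recycling factor Gfm2 at 138.9 ± 62.49 against 38.59 ± 9.06 CPM. Mitochondrial ribosomal proteins were mostly lower, 62 of 77 against 9 higher (52 and 14 with library totals alone), as for Mrpl16 at 18.36 ± 4.619 against 41.31 ± 5.833 CPM.

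Markers of other cell types moved with the prefix as well. Of all genes 44.3% were called higher and 43.2% lower with the PV title. All 10 astrocyte, 10 microglia and 10 endothelial and mural markers and all 6 oligodendrocyte markers in the table were called higher. Without the libraries that stand apart, 5 of the 6 oligodendrocyte markers were called. The summed levels of the markers were 1186 to 2695 against 370.7 to 1363 CPM for astrocytes and 201.8 to 358.6 against 47.26 to 110.3 for microglia. They were 97.26 to 310.9 against 12.28 to 95.47 for endothelial and mural cells and 242.9 to 772.7 against 135.2 to 339.7 for oligodendrocytes. Of 11 RNAs held in the nucleus 10 were higher and 1 lower, with a summed level of 5781 to 54590 against 938.4 to 25570 CPM. Counts assigned to no gene made up 61.01% ± 2.782 against 53.12% ± 1.335 of all counts. With that share as a further term of the fit the differences of the 9 genes were between log2 2.20 and 3.02. The part of these other cell types in the difference was not tested. In bulk libraries such as these, fewer cells of a type and less RNA per cell cannot be told apart.

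Among the mitochondrial counts, the mean share of each of the other 6 genes except mt-Nd4 differed between prefixes by less than 1 SD. mt-Nd1 supplied 29.11% ± 3.374 of the counts of the 9 genes in PV-titled libraries and 27.06% ± 4.817 in C-titled ones, and mt-Cytb 21.47% ± 2.107 and 20.35% ± 1.571. mt-Nd2 supplied 13.14% ± 1.66 and 14.72% ± 1.617, mt-Nd5 12.8% ± 1.839 and 14.01% ± 2.322, and mt-Nd4 10.87% ± 1.284 and 12.85% ± 1.813. The share of mt-Co1 had the widest range in PV-titled libraries relative to its mean among these 6, 7.046% to 26.64% (mean 12.51% ± 4.178), against 7.789% to 18.06% (10.91% ± 2.327) in C-titled libraries. Each of the 3 wholly covered genes supplied at most 0.1493% in any library.

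Over the day the 9 genes showed no rhythm that passed the test. Summed over the 9 genes, PV-titled libraries had 5527 ± 1702 CPM at ZT2 (n = 8), 5459 ± 1449 at ZT6 (n = 9), 4796 ± 1627 at ZT10 (n = 9), 5213 ± 2365 at ZT14 (n = 10), 5509 ± 1803 at ZT18 (n = 9) and 4351 ± 1671 at ZT22 (n = 10). In C-titled libraries the sums were 970.0 ± 346.2 at ZT2, 973.8 ± 393.9 at ZT6, 925.7 ± 198.3 at ZT10, 850.9 ± 253.7 at ZT14, 931.9 ± 362.9 at ZT18 and 836.1 ± 333.9 CPM at ZT22 (n = 9 or 10). Means at different times were closer than the SD within a time, with the highest 1.27-fold above the lowest in PV-titled and 1.165-fold in C-titled libraries. The PV-titled mean was 5.181-fold (ZT10) to 6.127-fold (ZT14) that of the C-titled libraries at the same time. Only at ZT22 did the sums of the prefixes overlap, where the lowest PV-titled library had 957.7 CPM and the highest C-titled library 1483 CPM.

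The lowest mean of 7 of the genes in PV-titled libraries was at ZT22, as for mt-Nd1 (1247 ± 546.5 CPM against 1687 ± 475.3 at ZT6) and mt-Cytb (918.4 CPM against 1261 at ZT2). The exceptions were mt-Nd5, lowest at ZT10 (602.5 ± 249.9 CPM) and highest at ZT18 (736.8 ± 280.9), and mt-Co2, lowest at ZT18 (1.033 CPM) and highest at ZT6 (1.522). In C-titled libraries mt-Nd1 ran from 213.3 ± 100.6 CPM at ZT22 to 287.6 ± 111.2 at ZT6, and mt-Nd5 from 123.9 ± 50.85 at ZT22 to 132.9 ± 49.85 at ZT18, the smallest change among the 9 at 1.073-fold.

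**Figure D3:**
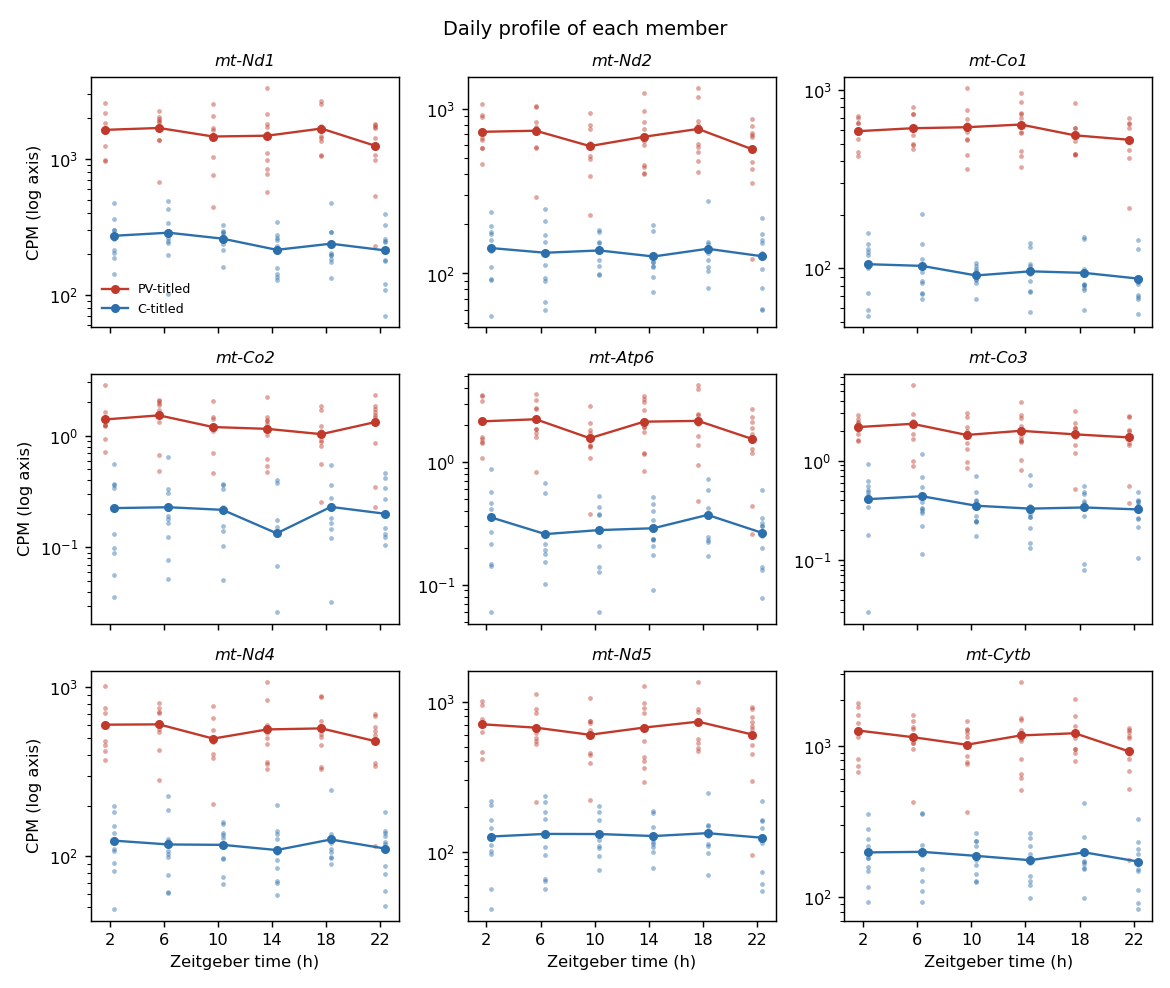
Level of each gene by zeitgeber time, in CPM on a log axis, with single libraries as small points and the mean of each time joined by lines (PV-titled red, C-titled blue). Libraries with a count of 0 are not drawn. From the lowest to the highest mean of the 6 times the range is 1.073-fold (mt-Nd5) to 1.723-fold (mt-Co2) in C-titled libraries.

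A fit of a 24 h cosine with sex and range as further terms called 0 of 9 genes in PV-titled libraries, where 3.1% of all genes were called, and 0 of 9 in C-titled libraries, where 27% were called (edgeR, adjusted p 0.5295 to 0.9978 and 0.2441 to 0.9824). At an unadjusted p under 0.05 the counts were 0 and 0, and DESeq2 called 0 and 0. Amplitudes, the log2 distance from mean to peak, were 0.02 to 0.22 in both prefixes, with median 0.08 over the 9 genes in PV-titled libraries and 0.07 in C-titled ones against 0.11 and 0.12 over all genes tested. The limits that the spread allows differ between genes: the upper 95% limit of the amplitude was lowest for mt-Co1 at 0.28 in PV-titled libraries and 0.26 in C-titled ones, which is 1.471-fold and 1.431-fold from trough to peak, and highest for mt-Co2 at 0.54 and 0.74, or 2.118-fold and 2.792-fold. Amplitudes up to these limits are not excluded by the fits. The test of a difference in rhythm between prefixes called 0 of 9 genes (adjusted p 0.8759 to 0.9899, 0 at an unadjusted p under 0.05, 0 with DESeq2), where 0.559% of all genes were called. mt-Nd3, mt-Nd6, both ribosomal RNAs and the 5 copies were not called rhythmic in either prefix. Among these, Gm28661 in C-titled libraries had an amplitude of 0.37 with a peak at ZT4.496 and an adjusted p of 0.07848 (edgeR).

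Nuclear genes for the same complexes were called rhythmic in C-titled libraries, but the counts of calls for these complexes fell to 0 or 1 without the libraries that stand apart. Of 36 nuclear complex I genes 19 were called, all with a fitted peak between ZT0 and ZT12, among them Ndufc1 (amplitude 0.31, peak ZT4.711), Ndufa1 (0.29, ZT5.166) and Ndufa13 (0.26, ZT5.273). The counts were 6 of 13 for complex IV, 3 of 9 for complex III, 6 of 17 for ATP synthase and 32 of 77 for mitochondrial ribosomal proteins, and each called gene peaked between ZT0 and ZT12, as did 58.4% of the 3518 called genes of all kinds. Without the libraries that stand apart, 5 of whose 6 C-titled members are at ZT2 or ZT6, these counts were 0 of 36, 0 of 13, 1 of 9, 0 of 17 and 11 of 77, while 24.2% of all genes were still called. In those 6 libraries the summed nuclear complex I level was 5451 to 10800 CPM (median 8953) against 4490 to 8685 (median 5494) in the other 52, while the summed level of the 9 mitochondrial genes had a median of 738.1 CPM and a highest value of 876.7 CPM against 899.9 and 1816 CPM. Genes for transcription and replication (4 of 15, such as Polrmt, the mitochondrial RNA polymerase, amplitude 0.20, peak ZT16.14), for mRNA processing (5 of 18, such as Slirp, peak ZT19.8) and translation factors (2 of 13) were called in shares of 26.7%, 27.8% and 15.4%, near or below the 27% of all genes, so these counts are no result about the lists. Their called genes all peaked between ZT12 and ZT24, as did 41.6% of all called genes, and without those libraries 3, 4 and 4 were called. In PV-titled libraries 3 of 77 mitochondrial ribosomal proteins were called (Mrps26, Mrps10 and Mrps28) and 0 genes of the respiratory complexes or of mitochondrial transcription, mRNA processing and translation factors (edgeR). The 3 of 77 are 3.9%, near the 3.1% of all genes called in PV-titled libraries, so these counts are no result about the lists. At an unadjusted p under 0.05 there were 3 of 36 for complex I, 2 of 9 for complex III, 2 of 13 for complex IV, 3 of 17 for ATP synthase and 3 of 18 for mRNA processing, and DESeq2 called 1 gene of complex III.

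Sex made no difference that passed the test. None of the 9 genes was called in PV-titled libraries (0.0307% of all genes called, all higher in females) or in C-titled ones (0.184%, with 0.0461% higher in males and 0.138% higher in females), by edgeR or DESeq2. Differences, males minus females, were log2 -0.17 to 0.18 in PV-titled and -0.56 to 0.29 in C-titled libraries. The number at an unadjusted p under 0.05 was 0 and 1, the latter being mt-Atp6 in C-titled libraries, with 0.358 ± 0.1974 CPM in females (n = 29) and 0.2458 ± 0.1438 in males (n = 29), log2 -0.56 (SE 0.22) and an adjusted p of 0.4739 (edgeR). mt-Co1 had means of 552.6 CPM in PV-titled females and 631.1 CPM in males (log2 0.18, SE 0.10, adjusted p 0.9999 by edgeR). In those PV-titled libraries the ribosomal RNAs had unadjusted p-values of 0.004043 (mt-Rnr1) and 0.02213 (mt-Rnr2) in edgeR, both with an adjusted p of 0.9999.

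Between the ranges of library numbers, the members called in PV-titled libraries were the 3 wholly covered genes. In PV-titled libraries mt-Co2 rose from 0.9157 ± 0.4266 CPM in the lower range (n = 26) to 1.584 ± 0.4871 in the higher range (n = 29), mt-Atp6 from 1.526 ± 0.8294 to 2.35 ± 0.8915 and mt-Co3 from 1.617 ± 0.8073 to 2.308 ± 0.877. The differences were log2 0.78 (SE 0.18, adjusted p 0.0005586), 0.64 (SE 0.20, adjusted p 0.01222) and 0.52 (SE 0.18, adjusted p 0.02436) by edgeR. These 3 were the only members called, where 28.8% of all genes were called, 13.1% higher in the higher range and 15.7% higher in the lower. The call of mt-Co3 was lost without replicate number 1, 2, 3 or 5 (adjusted p 0.2123, 0.05567, 0.0615 and 0.07663 by edgeR), and that of mt-Atp6 without replicate number 2 (0.06408). The other 6 differed by -0.15 for mt-Co1 to 0.31 for mt-Nd4, and mt-Nd4, which is covered in part, had an adjusted p of 0.08789 and of 0.01299 without the libraries that stand apart (edgeR). That the covered genes differ more than the other 6 was not tested.

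Of the other mitochondrial genes and the copies, some were called for the range in PV-titled libraries as well. mt-Nd3 was higher in the higher range by log2 0.78 (SE 0.25, adjusted p 0.01258 by edgeR), and among the copies Gm28661 (0.80, SE 0.18), Gm28439 (0.98, SE 0.28) and Gm28437 (1.34, SE 0.39) were higher, while Gm10925 (0.30, SE 0.34) and Gm29216 (SE 0.52) were not called. mt-Rnr2, of which 1.044% of 50-base stretches are nuclear, also rose (0.64, SE 0.11), from 346.9 ± 114.2 to 529.9 ± 128.0 CPM. In C-titled libraries 41.1% of all genes were called for the range, 19.3% higher in the higher range and 21.9% higher in the lower, and mt-Co3 was the only member among them (log2 0.52, SE 0.21, adjusted p 0.04598 by edgeR), a call lost when the libraries that stand apart were left out (p then 0.1332 after adjustment) and with scaling by library totals alone (0.05601). All 5 copies, mt-Nd3 (0.76, SE 0.29) and mt-Rnr2 (0.97, SE 0.16) were called higher there. mt-Co2 at 0.59 (SE 0.30) and mt-Atp6 at 0.33 (SE 0.22) were not called.

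**Figure D4:**
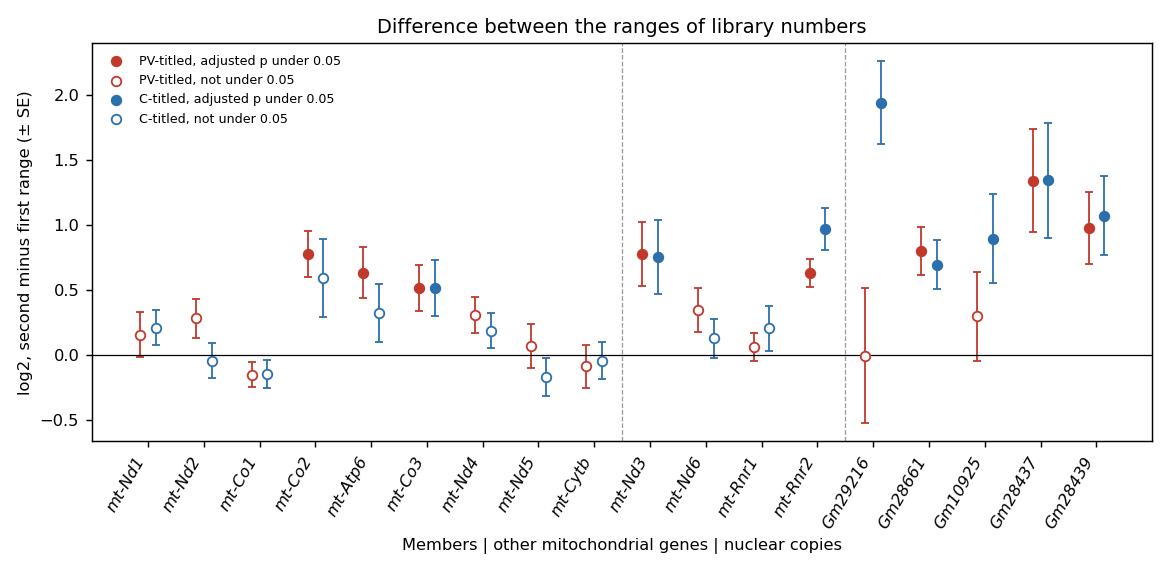
Difference between library-number ranges, log2 of the higher minus the lower range with its SE, for the 9 genes, the other mitochondrial genes and the nuclear copies. Filled points have an adjusted p under 0.05 (edgeR), red is PV-titled and blue C-titled. The 3 filled red points among the members are mt-Co2, mt-Atp6 and mt-Co3.

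Between libraries of a prefix the genes varied together. Pearson's r of log2 CPM, after the means of time, sex and range were taken out, had a median of 0.7448 over the 36 pairs in PV-titled libraries (0.6116 to 0.967, n = 55) and of 0.5536 in C-titled libraries (0.1705 to 0.9413, n = 58). All pairs share their library and its depth, so these values are a description. Among pairs of the other 6 genes the median was 0.9266 in PV-titled (median Spearman's rho 0.902) and 0.8413 in C-titled libraries (rho 0.8362). The closest pair in PV-titled libraries was mt-Nd1 with mt-Cytb at 0.967, the 2 genes with no 50-base stretch in a nuclear transcript. This did not hold in C-titled libraries, where that pair had 0.9024 and the closest was mt-Nd2 with mt-Nd4 at 0.9413. The lowest values among these 6 genes in PV-titled libraries were those of mt-Co1, with r from 0.6346 (mt-Nd5) to 0.7915 (mt-Nd4), where all pairs without it had at least 0.9088.

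The 3 wholly covered genes followed the others less closely in C-titled libraries, where their counts are smallest. Pairs of 1 wholly covered and 1 other gene had a median r of 0.7161 in PV-titled libraries and 0.4183 in C-titled ones, and pairs of wholly covered genes 0.7752 and 0.3752. Each was also set against its own copy: mt-Co2 and Gm28661 had an r of 0.7243 in PV-titled libraries and 0.5851 in C-titled ones, mt-Atp6 and Gm10925 0.4204 and 0.5946, and mt-Co3 and Gm28437 0.2615 and 0.5286. The mean of the 3 and the mean of the other 6 had an r of 0.8033 in PV-titled libraries and 0.5816 in C-titled ones.

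**Figure D5:**
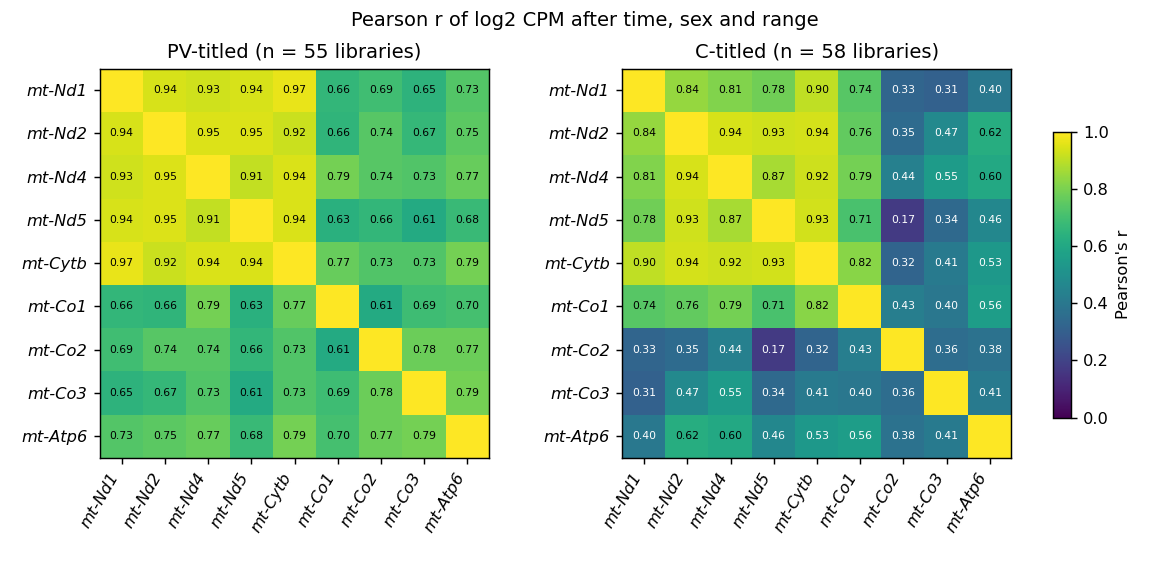
Pearson's r between log2 CPM of each pair of genes over libraries, after means of time, sex and range were removed, for PV-titled (left, n = 55) and C-titled (right, n = 58) libraries. In PV-titled libraries the block of complex I genes and mt-Cytb is brighter than all other pairs. In C-titled libraries it is not set apart from mt-Co1, as mt-Co1 with mt-Cytb (0.8218) exceeds mt-Nd1 with mt-Nd5 (0.7845). The 3 wholly covered genes at the lower right have r between 0.1705 and 0.624 with the others in C-titled libraries.

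The mean log2 CPM of the 9 genes was compared with other features of the libraries in the same way. In PV-titled libraries its r was 0.8912 with the summed other mitochondrial genes (rho 0.869), 0.6388 with the summed copies (rho 0.6905), -0.08536 with the share of counts on no gene and 0.09612 with the number of counts. With the summed astrocyte markers it was -0.555 (rho -0.4223, -0.5011 without the 2 farthest libraries, -0.6278 and -0.4125 in the lower and higher range, -0.2413 without the libraries that stand apart). With the summed endothelial and mural markers it was 0.4333 (rho 0.4371, 0.4286 without the libraries that stand apart). PV interneuron markers gave 0.3445 (rho 0.39, 0.6775 and 0.2343 in the lower and higher range, 0.1244 without the libraries that stand apart), and GABAergic markers 0.1696 (0.4265 and 0.0604 by range). Nuclear complex I genes gave -0.1673 over all PV-titled libraries, with -0.3632 in the lower and 0.4282 in the higher range, so no one value describes both ranges. In C-titled libraries the highest values among the marker lists were 0.5824 with summed pyramidal markers (rho 0.5161, 0.546 without the 2 farthest libraries, 0.6366 and 0.558 by range) and 0.4537 with PV interneuron markers (rho 0.3785, 0.4477 and 0.4325 by range). The GABAergic markers there gave -0.05878, with -0.3686 in the lower and 0.3846 in the higher range. Astrocyte markers there gave -0.5613 in the lower and 0.3673 in the higher range.

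Of 10732 genes with a mean of at least 10 CPM in PV-titled libraries that are not mitochondrially encoded, the one most like the mean of the 9 was Gm13339 (r 0.8962, mean 10.83 CPM), a nuclear gene whose transcript shares 50-base stretches with mt-Nd2. Next were Kat6a (0.7748), a histone acetyltransferase, the synaptic vesicle priming gene Unc13c (0.7697), the cohesin loader Nipbl (0.7669), the chromatin remodeller Atrx (0.7579) and the histone methyltransferase Kmt2a (0.7515). The lowest were Ngly1 (-0.6458), Usp10 (-0.6439) and Zc3h15 (-0.631). With the other 6 genes as the reference Gm13339 was again first (0.8576), followed by Nipbl (0.8078) and Atrx (0.8025). Among 9775 genes in C-titled libraries the most similar were the AMPA receptor subunit Gria4 (0.7288), the calcium channel subunit Cacnb2 (0.7279), the potassium channel Kcna2 (0.7015), Dnajc5 (0.6834), Creg2 (0.6832) and Cul4b (0.6722), and the lowest Adap1 (-0.7244), Asphd2 (-0.7189) and Abhd17c (-0.7159). With the other 6 genes as the reference Cul4b was first (0.6977) and Gria4 the sixth (0.6421).

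Both ends of the PV-titled range were libraries that stand apart: the lowest sum of the 9 genes was 957.7 CPM in a female library at ZT22, with 229.5 CPM of mt-Nd1 and 176.4 of mt-Cytb, and the highest was 10520 CPM in a female library at ZT14, with 3299 CPM of mt-Nd1 and 2645 of mt-Cytb. The sums of the PV-titled libraries that stand apart had an SD of 3217 CPM (n = 9) around a mean of 4560, and those of the others an SD of 1368 (n = 46) around 5232. In C-titled libraries the lowest sum was in a male library at ZT22, which stands apart, with 70.81 CPM of mt-Nd1 and 83.21 of mt-Cytb, and the highest was 1816 CPM in a female library at ZT18, which does not.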

How the data were processed

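RNA from HA pull-downs of mouse prefrontal cortex was made into cDNA with SMART-seq HT and into libraries with Nextera Flex, per the labels' protocols. The authors deposited 1 table of raw counts, with a row for each gene and a column for each library. Per the submitters' processing notes FastQC, HTSeq and DESeq2 were used with build GRCm38. The sources used here do not give the aligner, versions, annotation, strand setting or treatment of reads with several matches. Of the table's gene identifiers 13051 matched a symbol in GENCODE vM21. Counts on no gene were kept out of library sizes. Of all columns of the table, 1 matched no single sample and was not used.

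Genes and lists were chosen with earlier results of these data known. The rule for named genes took all 9 genes, the other mitochondrial genes and their chromosome 1 copies, up to 3 genes of each list by smallest p between prefixes, and the 6 most and 3 least similar genes in each prefix. Nuclear genes named as rhythmic were chosen after their values were seen. So was the split of co-variation into the 3 wholly covered and the other 6 genes. The 19 further lists comprised the other mitochondrial genes, the copies, transcription and replication, mRNA processing, translation factors, mitochondrial ribosomal proteins, nuclear complexes I to IV and ATP synthase, RNAs held in the nucleus, and markers of PV, GABAergic, pyramidal, astrocyte, oligodendrocyte, microglia, and endothelial and mural cells.

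Tests used R 4.3.3 and edgeR 4.0.16 (TMM, filterByExpr, quasi-likelihood F tests, adjusted p under 0.05), with DESeq2 1.42.0 as an alternative. Fits were tested on simulated data. CPM are after TMM scaling of all libraries, and log2 CPM use a prior count of 2. Sequence stretches of 30, 50 and 100 bases were looked up in annotated nuclear transcripts of GENCODE vM21, and those of 50 are printed. Reads without molecular identifiers are not independent molecules, so limits from counts cover counting error only.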

Additional observations from a re-analysis of the deposited data

Results flagged for a closer look

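A library was singled out where its gap to the nearest library of the same prefix and time was larger than Dixon's 95% critical value for that number of libraries. Of 120 groups tested 14 gave such a library, where chance gives about 1 in 20, or 6. The groups are not independent, because the genes vary together between libraries, and all 14 were the highest library of their group.

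In C-titled libraries at ZT18 1 female library (replicate 3, in the higher range) accounts for 6 of the 14. It had 477.6 CPM of mt-Nd1 (next library 290.9), 275.2 of mt-Nd2 (156.2), 248.3 of mt-Nd4 (136.4), 247.2 of mt-Nd5 (151.2), 418.9 of mt-Cytb (248.8) and a sum of 1816 CPM over the 9 genes (1032). In PV-titled libraries at ZT18 a male library (replicate 1, which stands apart) had 1358 CPM of mt-Nd5 (897.8) and 846.9 of mt-Co1 (617.4). At ZT14 a PV-titled female library (replicate 3, which stands apart) had 2645 CPM of mt-Cytb (1530).

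The other 5 were spread over libraries. mt-Co1 reached 201.8 CPM in a C-titled female library at ZT6 (136.9 in the next). mt-Co2 reached 2.841 CPM in a PV-titled male library at ZT2 (1.626) and 0.6463 CPM in a C-titled female library at ZT6 (0.3303). mt-Co3 reached 5.79 CPM in a PV-titled female library at ZT6 (2.937), and mt-Atp6 0.5896 CPM in a C-titled female library at ZT22 (0.3489).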

How the results depend on the processing

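All 9 genes were called higher in PV-titled libraries, and 0 of 9 were called for rhythm, for the difference in rhythm or for sex, under each alternative run for these results (17 for the prefix, 17 and 18 for rhythm, 15 for its difference, 13 and 14 for sex). These were other scaling, DESeq2, no filter, leaving out replicate numbers or the libraries that stand apart, and, where they apply, each range or sex alone, the share of counts on no gene as a term, the titles' set number as a term and time as a factor. Rhythm tests within a prefix in a single range or sex called 0.0613% to 0.997% of all genes in PV-titled libraries and 2.07% to 10.2% in C-titled ones, against 3.1% and 27% over all libraries of the prefix. The count for the library-number range depended on the setting. In PV-titled libraries it was 3, and 1 to 4 when a replicate number was left out. In C-titled libraries it was 1, and 0 with library totals alone, 0 without the libraries that stand apart, and 0 to 2 when a replicate number was left out. Of 657 values of single genes under alternatives 637 stayed on the same side of the threshold, 15 lost and 5 gained a call, all for the range, and 0 reversed. With all counts as the denominator the 9 genes' share was 0.2162% in PV-titled libraries and 0.04029% in C-titled ones. The median r of gene pairs in C-titled libraries was 0.6562 in the higher range alone and 0.4609 in the lower, where the cause was not tested. Depth limits mt-Co2, mt-Co3 and mt-Atp6 most. Titles also carry a set number from 1 to 5. The sets of a prefix hold 7 to 13 libraries, and most hold each time and sex at most once. The labels do not say what a set is. A fit with this number as a replicate block, chosen after seeing the data, called 9 of 9 genes between prefixes and 0 of 9 for rhythm, its difference and sex. With the block the range called 0 of the 9 genes in either prefix, and 2.07% of all genes with the PV title (28.8% without the block) and 1.24% with the C title (41.1%). There the range is compared within few sets, since 2 PV and 1 C set hold libraries of both ranges. Under the block 0.153% of all genes were called for the rhythm difference against 0.559%, and 4 against 2 translation factors were rhythmic in C-titled libraries. After group and range were taken out, the mean r over genes was 0.0174 within a set and -0.026 between sets of PV-titled libraries, and 0.0761 and -0.0294 for C-titled ones. Of 55 and 58 libraries 18 and 22 were closest to their own set. Taking out group means by itself lowers r between libraries of the same time and sex, and these lie mostly in different sets. The lower mean r between sets is thus in part fixed by the method. Whether libraries of a set share more than a number was not tested. The main fits have no term for the set.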
